A study of Mus musculus with 8 samples.

Results

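Sirtuins are enzymes that use nicotinamide adenine dinucleotide (NAD) to remove acyl groups from proteins, and 8 genes of sirtuin and NAD metabolism are described here: Sirt1, Sirt3, Sirt5, Sirt6, Sirt7, Nampt, Nmnat1 and Nnmt. They were chosen by name, with earlier results of these data known, as 8 of the 21938 protein-coding genes of the mm10 annotation (GENCODE release M21). Counts set beside those of all genes below describe this chosen set and were not tested. The measurement was chromatin immunoprecipitation with sequencing (ChIP-seq) of the glucocorticoid receptor (GR), the transcription factor that corticosterone activates, in the liver of C57BL/6J mice. Overlapping peak regions of 6 GR libraries were merged into 51431 sites, of which 84 were centred within 50 kb of the start of 1 of the 8 genes. A list of 8394 FOXO1 peaks, made by the authors from 2 merged libraries of calorically restricted livers, had 14 peaks in the same windows.

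The 6 GR libraries formed 3 groups of 2. By the study's account, ctrl. mice had free access to food until the final week, when they ate during the night only. The cal. res. mice were calorically restricted in gradual steps and fed at lights-off. The CORT mice ate at night and received corticosterone, the main glucocorticoid of mice. All mice were male, and livers were collected at lights-off, when corticosterone peaks. All mice carried the same C57BL/6J genotype and ate regular chow. The study describes daily corticosterone injections beside a vehicle arm, but the labels of the ctrl. libraries name the feeding schedule alone, so it is not known here whether those mice were injected. The libraries of a group are called biological replicates in the methods. Peak lists carry no expression, so liver markers could not be checked and no level of transcript belongs to any gene below.

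Each sirtuin consumes NAD and releases nicotinamide, which links the activity of these enzymes to the energy state of the cell. Hepatocytes recycle nicotinamide through NAMPT, the rate-limiting enzyme of NAD salvage, followed by the NMNAT enzymes that form NAD itself. NNMT instead methylates nicotinamide and takes it out of that cycle. SIRT1 is a nuclear deacetylase that acts on transcription factors including the FOXO family, SIRT6 and SIRT7 are nuclear enzymes that act at chromatin, and SIRT3 and SIRT5 are mitochondrial. FOXO1 is a forkhead factor that insulin keeps out of the nucleus and that is active in fasted liver.

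Sequence inside the strongest GR site of each gene is shown first, around the summit of the list in which that site stood highest. The percentiles below refer to the whole merged site, which is longer than the stretch printed, and summits of other lists can lie elsewhere in it. Up to 200 bp around the peak summit were read from GRCm38 (mm10), plus strand, and windows were trimmed where they met annotated untranslated exon sequence. Capitals mark matches to any of 7 short motifs searched on both strands. The strongest Sirt7 site lies in untranslated sequence of Mafg and is not printed.

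Nnmt, 7.9 kb upstream, chr9:48612688-48612887, capitals an HNF4 match: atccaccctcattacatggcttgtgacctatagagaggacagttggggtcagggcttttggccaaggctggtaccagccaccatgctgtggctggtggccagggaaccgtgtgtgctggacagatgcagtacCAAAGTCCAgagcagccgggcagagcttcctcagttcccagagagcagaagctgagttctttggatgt
Sirt3, start region, chr7:140880459-140880658, capitals an HNF4 match: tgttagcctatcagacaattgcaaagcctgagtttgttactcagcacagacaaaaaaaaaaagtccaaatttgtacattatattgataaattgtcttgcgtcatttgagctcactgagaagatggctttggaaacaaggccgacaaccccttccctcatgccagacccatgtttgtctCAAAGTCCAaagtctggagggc
Nmnat1, 40.8 kb upstream, chr4:149525951-149526150, capitals a palindromic GR element: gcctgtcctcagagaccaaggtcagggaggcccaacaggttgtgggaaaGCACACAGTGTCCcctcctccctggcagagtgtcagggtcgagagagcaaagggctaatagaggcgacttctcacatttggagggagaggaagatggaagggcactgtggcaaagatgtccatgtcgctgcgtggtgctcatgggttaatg
Sirt1, 33.9 kb upstream, chr10:63415925-63416124, capitals a C/EBP match: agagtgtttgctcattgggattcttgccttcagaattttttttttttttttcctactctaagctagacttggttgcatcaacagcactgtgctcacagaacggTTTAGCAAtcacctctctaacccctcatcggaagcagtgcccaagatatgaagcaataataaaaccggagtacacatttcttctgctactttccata
Nampt, start region, chr12:32820144-32820334, no match: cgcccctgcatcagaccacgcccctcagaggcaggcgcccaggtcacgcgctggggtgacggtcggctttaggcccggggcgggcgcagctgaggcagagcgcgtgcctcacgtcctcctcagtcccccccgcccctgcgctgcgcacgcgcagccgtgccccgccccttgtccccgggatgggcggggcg
Sirt5, start region, chr13:43365545-43365627, no match: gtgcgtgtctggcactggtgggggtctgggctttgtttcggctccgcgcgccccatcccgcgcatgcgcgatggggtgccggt
Sirt6, 26.8 kb downstream at Tle6, chr10:81600901-81600978, no match: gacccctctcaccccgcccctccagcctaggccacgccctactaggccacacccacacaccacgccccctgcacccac

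A site in an Nnmt intron is shown beside them, since it is the only site of the 84 that both cal. res. libraries held while neither ctrl. library had a peak.

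Nnmt, 6.1 kb downstream of the start, chr9:48599075-48599274, no match: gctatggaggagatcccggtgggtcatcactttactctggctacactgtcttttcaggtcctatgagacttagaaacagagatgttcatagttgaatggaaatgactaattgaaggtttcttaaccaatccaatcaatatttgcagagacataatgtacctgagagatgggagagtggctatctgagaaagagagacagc

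A full palindromic GR element (GNACANNNTGTNC, N being any base) was found at 1 of the 84 sites (1.19%) and at 1.89% of all sites searched in the same 200 bp. The GR monomer string AGAACA stood at 14.3% of the 84 sites and 18.4% of all sites, and the C/EBP string TTGCNNAA at 14.3% and 15.1%. The HNF4 string CAAAGTCCA was held by 3 of the 84 (3.57%), against 1.47% of all sites. FOX (TGTTTAC), STAT (TTCNNNGAA) and E-box (CACGTG) strings were at 3.57%, 4.76% and 5.95% of the 84 sites and at 5.19%, 8.16% and 4.72% of all. These are matches of letters, and a window without them says only that the letters are not in it.

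The lists differed in length, and this bears on every count below. After rows with the same start and end were reduced to 1 region, the ctrl. libraries held 36234 and 12458 regions, the cal. res. libraries 22707 and 18747, and the CORT libraries 29473 and 39136. Library names followed 2 styles, series A for the cal. res. pair with ctrl. replicate 2 and series B for the CORT pair with ctrl. replicate 1. Series and group therefore cannot be told apart between cal. res. and CORT. Read depth is unknown here, and intervals for counting error are not given.

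A GR peak stood at 57 and 27 of the 84 sites in ctrl. replicates 1 and 2, at 34 and 28 under cal. res. and at 53 and 68 under CORT. These counts equal 67.9%, 32.1%, 40.5%, 33.3%, 63.1% and 81.0% of the 84 sites, in that order, and the corresponding shares of all 51431 sites were 67.6%, 22.3%, 40.3%, 33.7%, 53.8% and 73.6%. The order of the libraries was thus that of their list lengths, at these genes and over all sites. The largest excess over all sites was in ctrl. replicate 2, and both CORT libraries were also above their background, while ctrl. replicate 1 and the cal. res. libraries lay within 1 percentage point of it.

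**Figure D1:**
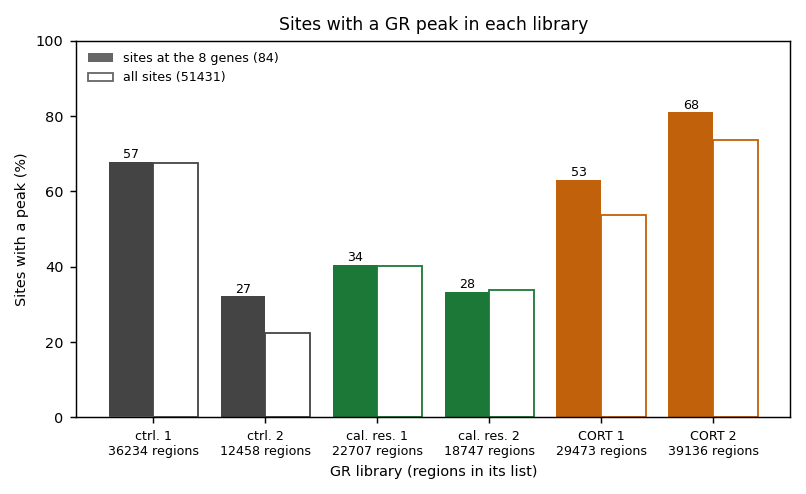
Share of sites with a GR peak (%) in each GR library, with the number of regions in its list below; filled bars are the 84 sites at the 8 genes, with their count above, and open bars are all 51431 sites. The filled bars run from 32.1% (ctrl. replicate 2) to 81.0% (CORT replicate 2) and follow the open bars.

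Where both libraries of a group had a peak, that group is said to hold the site. Ctrl. held 27 of the 84 sites on this footing (32.1%), against 21.4% of all sites. Cal. res. held 26 (31.0%), against 27.9%. CORT held 45 (53.6%), against 43.7%. All 3 groups held 20 (23.8%), against 15.7%. With 12458 regions taken from every library, 20 of 41 sites were held by ctrl. (48.8%), 20 by cal. res. (48.8%) and 18 by CORT (43.9%). The shares over all 21415 sites of these lists were 36.0%, 42.5% and 42.2%.

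Sites were spread unevenly over the 8 genes. Nnmt and Sirt3 had 19 each and Sirt7 had 16, whereas Sirt1 had 11, Nmnat1 7, Sirt6 5, Nampt 4 and Sirt5 3. The median over all protein-coding genes was 3, and 1.70% of genes had 19 or more. A site held by all 3 groups lay near 6 of the 8 genes, compared with 37.9% of protein-coding genes; Sirt1 and Sirt5 had none. A site held by cal. res. lay near all 8, compared with 47.2%. Windows around starts in gene-dense regions also take in other genes: for 51 of the 84 sites the start of another protein-coding gene was nearer than that of the sirtuin or NAD gene. All 19 Nnmt sites and all 4 Nampt sites had their own gene as the nearest, but only 1 of 19 Sirt3 sites, 2 of 16 Sirt7 sites and 0 of 7 Nmnat1 sites did. At the edge of the window, the outermost site kept was a Sirt7 site at 49.7 kb (percentile 20.2, 1 list) and the nearest one left out was at 50.3 kb from Nampt (percentile 18.2, 1 list).

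**Figure D2:**
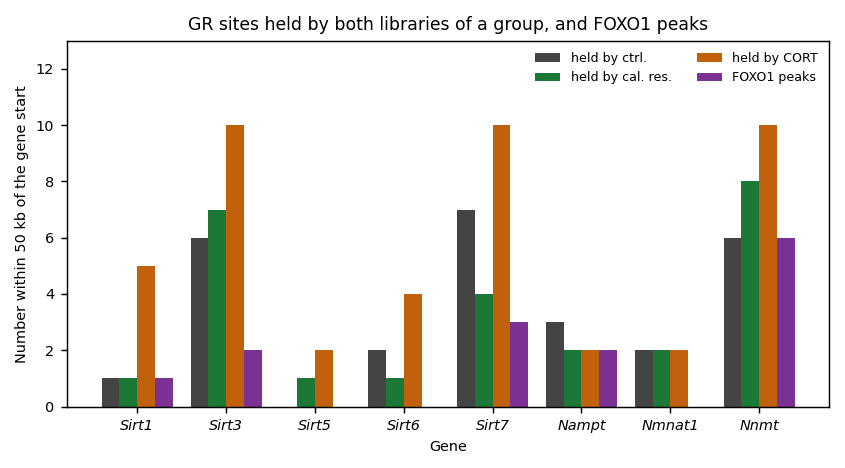
Number of GR sites within 50 kb of each gene start that both libraries of ctrl., cal. res. or CORT held, and number of FOXO1 peaks in the same window. Sirt3, Sirt7 and Nnmt each had 10 sites held by CORT, and Nnmt had 6 of the 14 FOXO1 peaks.

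Values at single sites are given as the percentile of the peak's fold enrichment among the regions of its own list, where 100 is the strongest region. The 6 values are in the order ctrl. replicates 1 and 2, cal. res. replicates 1 and 2, CORT replicates 1 and 2. Percentiles in a short list rank a peak among strong peaks only. With 2 libraries a group, an exact permutation test over the 15 groupings cannot give p under 0.0667, and 1 group against another cannot give p under 0.333, so no site could pass a threshold of 0.05. Sites other than the highest, start-covering and no-ctrl.-peak sites of a gene were chosen with their values in view.

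**Figure D3:**
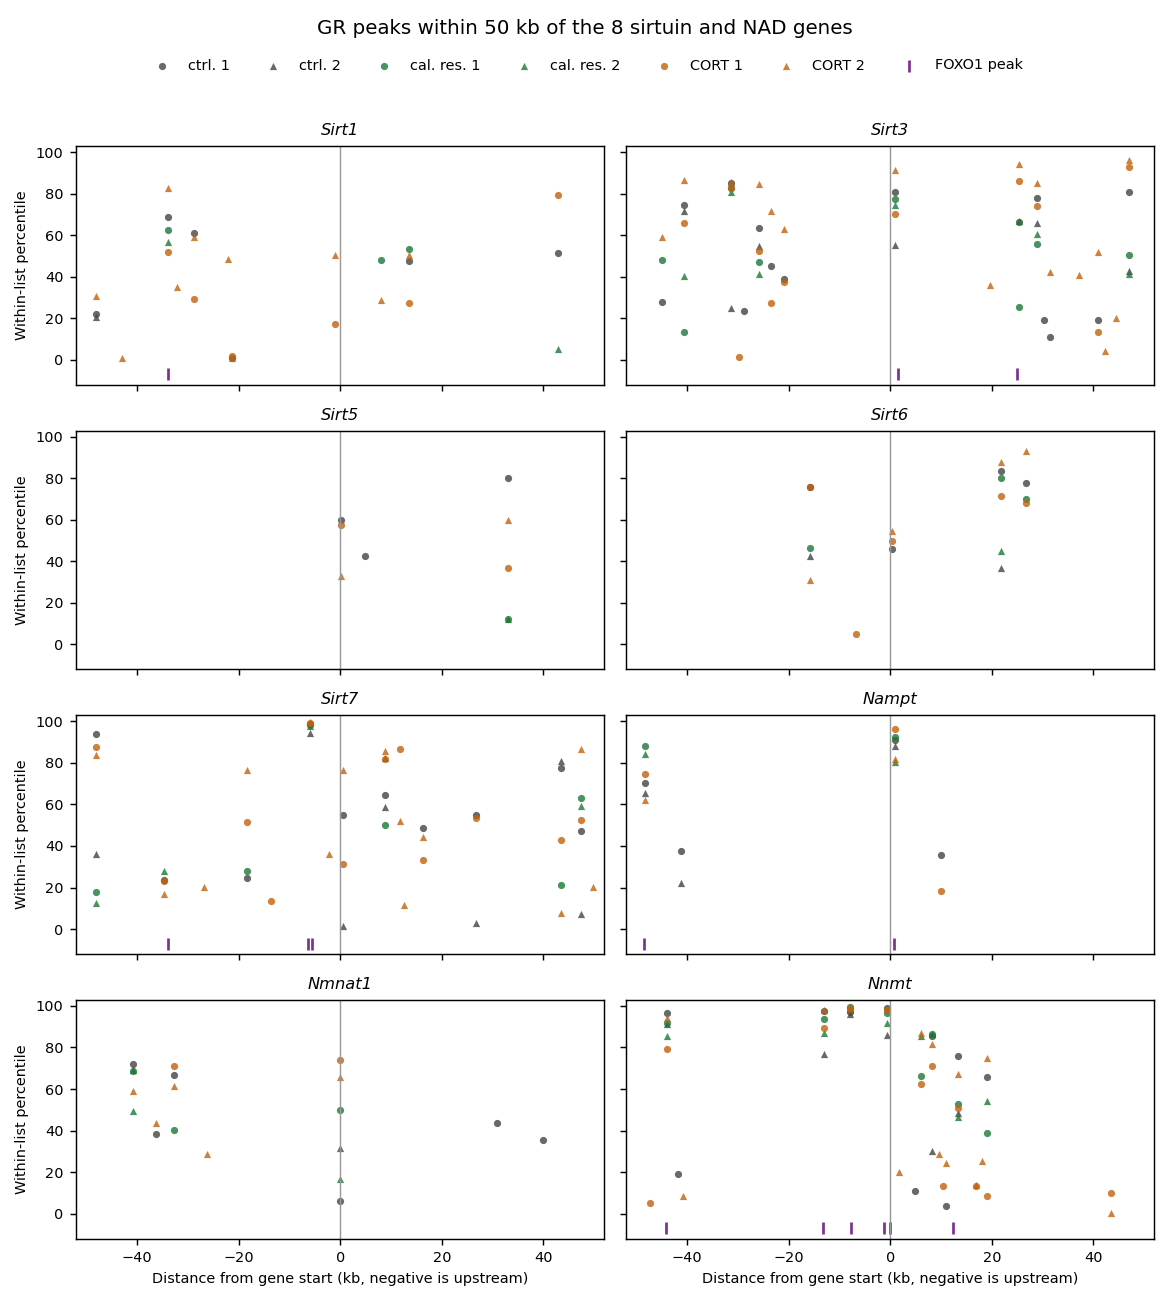
Within-list percentile of each GR peak (y axis) against its distance from the gene start in kb (x axis, negative is upstream), 1 panel per gene, with colour for the group, circles for replicate 1 and triangles for replicate 2. Purple ticks mark FOXO1 peaks; Nnmt has 4 sites upstream or over its start where the lowest of the 6 libraries stands at 77.0.

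Sirt1 (ENSMUSG00000020063.16, chr10:63319005-63381704, minus strand) had 11 sites and none in all 6 lists. Its highest site was an intergenic one 33.9 kb upstream, chr10:63414940-63416295, with percentiles of 68.8 and no peak in ctrl., 62.4 and 56.6 under cal. res. and 51.8 and 83.0 under CORT. It was the only Sirt1 site that both cal. res. libraries held, and the predicted gene Gm7075 has the nearer start. A FOXO1 peak at chr10:63415381-63415767 overlapped it, at percentile 37.1 of the FOXO1 list. CORT held 5 of the 11 sites, ctrl. 1 and cal. res. 1. A site 1.1 kb upstream, chr10:63382364-63383177, which covers the start of the neighbouring gene Dnajc12, had peaks at percentiles 17.4 and 50.3 in CORT and none in ctrl. or cal. res. No site covered the start of the Sirt1 gene record. In the body of the gene, 3 sites were found, and the one 13.5 kb downstream was seen in 4 lists at percentiles between 27.2 and 53.6.

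Sirt3 (ENSMUSG00000025486.17, chr7:140863666-140882309, minus strand), the main mitochondrial deacetylase, had 6 sites in all 6 lists. The highest, chr7:140880282-140882630, covered its start and that of the adjoining gene Psmd13. Percentiles there were 80.9 and 55.4 in ctrl., 77.3 and 74.8 under cal. res. and 70.4 and 91.4 under CORT, so the groups overlapped (exact permutation p = 0.8 over 3 groups, two-sided). A FOXO1 peak at percentile 75.0 of its list lay inside it. The start region of Sirt3 thus had a GR peak in every library, at percentiles that did not separate by group.

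Other Sirt3 sites belonged by position to neighbours. At the Urah start, 46.9 kb downstream, the values were 81.1 and 42.6 in ctrl., 50.5 and 41.4 under cal. res. and 92.7 and 96.0 under CORT, with both CORT libraries above the rest (exact permutation p = 0.133 over 3 groups). In the Nlrp6 coding sequence, 40.7 kb upstream, they were 74.7 and 71.8, 13.2 and 40.2, and 66.0 and 86.8, and both cal. res. libraries were the lowest (exact permutation p = 0.2). Lower values in cal. res. than in ctrl. also occurred 28.8 kb downstream and 25.8 kb upstream of Sirt3. In lists of equal length the groups overlapped at the first of these, with 35.4 and 65.8 in ctrl. and 19.5 and 41.1 under cal. res. At the second, ctrl. replicate 1 then had no peak and ctrl. replicate 2 stood at 54.9, against 5.3 and 11.7 for cal. res. The site 31.3 kb upstream showed no such order, with values of 80.9 to 85.7 in 5 libraries and 24.8 in ctrl. replicate 2. A second FOXO1 peak, at percentile 36.0 of its list, overlapped the Sirt3-window site 25.4 kb downstream, which covers the Ric8a and Bet1l starts.

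Sirt5 (ENSMUSG00000054021.6, chr13:43365496-43395203, plus strand), a mitochondrial desuccinylase, had the fewest sites. The site over its start, chr13:43365443-43365886, had peaks at percentile 59.8 in ctrl. replicate 1 and at 57.6 and 33.0 in CORT. No peak was called there in ctrl. replicate 2 or in cal. res. The only Sirt5 site with peaks in cal. res. stood 33.1 kb downstream at the Nol7 start, where the values were 80.1 and no peak in ctrl., 12.1 and 12.3 under cal. res. and 36.8 and 60.04 under CORT. No FOXO1 peak lay in the window.

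Sirt6 (ENSMUSG00000034748.16, chr10:81621785-81627797, minus strand) likewise had no FOXO1 peak. Near its own start, a site 0.28 kb downstream that did not reach the start had peaks in ctrl. replicate 1 (45.9) and CORT (49.8 and 54.6) and none in cal. res. Its highest site was at the Tle6 start, chr10:81600548-81601422, with 78.0 and no peak in ctrl., 70.1 and no peak under cal. res. and 68.0 and 93.3 under CORT. One Sirt6 site was in all 6 lists, 21.8 kb downstream, at 83.5 and 36.7, 80.2 and 45.0, and 71.5 and 88.0, with more spread inside ctrl. and cal. res. than between the groups.

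Sirt7 (ENSMUSG00000025138.14, chr11:120618372-120625240, minus strand) lay beside 1 of the strongest GR regions in the windows. This site, chr11:120627744-120634512, spans 6769 bp, is centred 5.9 kb upstream and covers the start of Mafg, a small MAF transcription factor. Its percentiles were 98.9 and 94.3 in ctrl., 98.2 and 97.8 under cal. res. and 99.3 and 99.6 under CORT, and 3.67% of the 8097 sites present in all lists had a mean percentile at least as high. Both CORT libraries were above the other 4, the nearest of which stood at 98.9 (exact permutation p = 0.467 over 3 groups). It overlapped 2 FOXO1 peaks, at percentiles 91.6 and 74.1 of that list, the first being the highest of the 14.

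The site over the Sirt7 start was weaker and variable. It had percentiles of 55.0 and 1.6 in ctrl., no peak under cal. res. and 31.3 and 76.5 under CORT. In the coding sequence of Pcyt2, 11.7 kb downstream, CORT held a site at 86.7 and 51.8 with no ctrl. or cal. res. peak. The site at the Aspscr1 start, 48.1 kb upstream, had 94.0 and 36.0 in ctrl., 18.0 and 12.4 under cal. res. and 87.5 and 83.7 under CORT, so that both cal. res. libraries were the lowest there (exact permutation p = 0.2). The sites centred closest to the gene-record starts of Sirt1, Sirt5, Sirt6 and Sirt7 had no cal. res. peak. Of these 4 sites, ctrl. replicate 2 had a peak only at that of Sirt7. Those of Sirt3, Nampt, Nmnat1 and Nnmt had a peak in all 6 lists. Start sites of all genes were not counted, and over all sites the cal. res. libraries had a peak at 40.3% and 33.7%. A Sirt1 site 42.8 kb downstream, over the start of a Sirt1 transcript, had a cal. res. replicate 2 peak at percentile 5.1.

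Nampt (ENSMUSG00000020572.8, chr12:32819545-32853349, plus strand) had 4 sites, 2 of them in all 6 lists. The start-region site, chr12:32819725-32821302, is centred 0.97 kb downstream of the start of the gene record and covers the start of a transcript of the basic annotation set. Percentiles were 91.2 and 87.9 in ctrl., 92.7 and 80.5 under cal. res. and 96.5 and 81.9 under CORT. The ranges of the groups overlapped (exact permutation p = 0.933 over 3 groups). A FOXO1 peak of fold enrichment 4.83, percentile 25.5 of its list, overlapped it.

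The distal Nampt site, chr12:32770651-32771618, lies 48.4 kb upstream in intergenic sequence. It had 70.4 and 65.4 in ctrl., 87.9 and 84.4 under cal. res. and 74.5 and 62.2 under CORT. Both cal. res. libraries were above all 4 others, the nearest being 74.5 in CORT replicate 1 (exact permutation p = 0.2 over 3 groups). Within series A, which holds 1 ctrl. library, the same order was 65.4 against 87.9 and 84.4. In lists of 12458 regions the percentiles were 13.9 and 65.4 in ctrl., 78.0 and 76.6 under cal. res. and 39.6 and no peak under CORT. The FOXO1 peak inside it, chr12:32770827-32771372, had a fold enrichment of 8.14 and percentile 77.9 of its list. Of the 4 Nampt sites, 1 other (41.3 kb upstream) was held by ctrl. and by no other library, at percentiles 37.8 and 22.1.

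Nmnat1 (ENSMUSG00000028992.13, chr4:149467572-149485202, minus strand), which encodes the nuclear NMNAT, had 7 sites and no FOXO1 peak. A single site, chr4:149484885-149485701, covered its start and that of Lzic. The values were 5.9 and 31.8 in ctrl., 49.8 and 16.8 under cal. res. and 74.0 and 65.6 under CORT, with CORT above every other library (exact permutation p = 0.133 over 3 groups). Under equal list lengths 3 of the 6 libraries kept a peak there: ctrl. replicate 2 (31.8), cal. res. replicate 1 (8.5) and CORT replicate 1 (38.4). The highest Nmnat1 site, in an intron of Ctnnbip1 40.8 kb upstream, had the 1 palindromic GR element of the 84 sites. There the percentiles were 72.3 and 69.3 in ctrl., 68.9 and 49.5 under cal. res. and no peak and 59.1 under CORT. In lists of equal length ctrl. had 19.3 and 69.3 and cal. res. 43.2 and 24.0, so these groups overlapped.

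Nnmt (ENSMUSG00000032271.13, chr9:48591877-48605153, minus strand) had as many GR sites as Sirt3 and the most FOXO1 peaks of the 8 genes. It had 6 sites in all 6 lists, a number that 1.14% of protein-coding genes reached, and 6 FOXO1 peaks, reached by 1.24%. Ctrl. held 6 of its 19 sites, cal. res. 8 and CORT 10. A further 8 sites were in 1 list only, and the median of the mean percentiles over the 19 sites was 25.2, below that of every other gene.

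**Figure D4:**
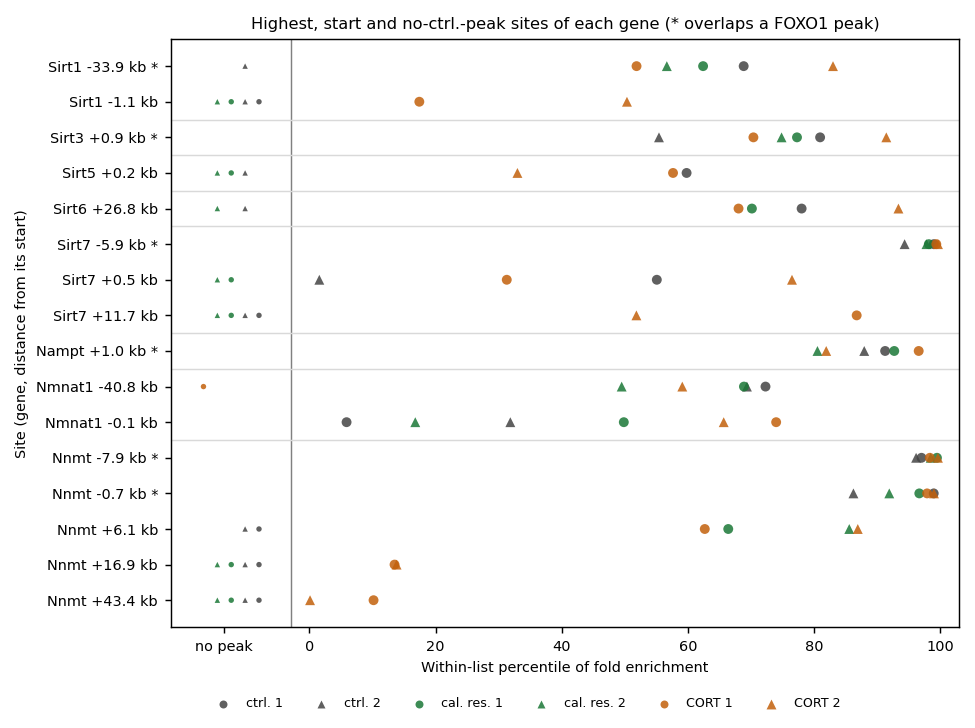
Within-list percentile of fold enrichment (x axis) in each GR library for the highest site, the start site and the sites without a ctrl. peak of each gene (y axis, with distance from the gene start); small symbols left of the line mark libraries without a peak. At Nnmt 7.9 kb upstream all 6 libraries lie between 96.1 and 99.6, and at Nnmt 6.1 kb downstream only the ctrl. libraries lack a peak.

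The strongest Nnmt site lies 7.9 kb upstream, chr9:48612245-48613806, in intergenic sequence. Its fold enrichment was 21.9 and 11.6 in ctrl., 57.2 and 30.5 under cal. res. and 33.8 and 67.1 under CORT, a quantity that is comparable only within a list. The percentiles were 97.0 and 96.1, 99.4 and 98.5, and 98.3 and 99.6. All 4 libraries of cal. res. and CORT were above both ctrl. libraries (exact permutation p = 0.2 over 3 groups). The order was the same within each name series: 96.1 against 99.4 and 98.5 in series A, and 97.0 against 98.3 and 99.6 in series B. In lists of equal length cal. res. stayed above ctrl. (99.0 and 97.7 against 91.3 and 96.1), whereas CORT overlapped it (96.0 and 98.7). Of the 8097 sites in all lists, 3.41% had a mean percentile at least as high.

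The start site of Nnmt, chr9:48604395-48607251, covers the transcription start. It stood at 98.9 and 86.2 in ctrl., 96.6 and 91.9 under cal. res. and 97.9 and 99.0 under CORT, and the groups overlapped apart from CORT lying above cal. res. (exact permutation p = 0.533 over 3 groups). Sites 13.2 kb and 43.9 kb upstream were also high. The nearer one had 97.5 and 77.0, 93.5 and 86.9, and 89.2 and 98.1, and the farther one 96.6 and 91.5, 91.8 and 85.7, and 79.2 and 94.4. At both sites the values of ctrl. and cal. res. overlapped, as did those of ctrl. and CORT.

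Inside the gene, a site 6.1 kb downstream of the start, chr9:48598179-48599971, in an intron, had no ctrl. peak. Its percentiles were 66.4 and 85.5 under cal. res. and 62.6 and 86.9 under CORT, with fold enrichments of 7.35, 9.69, 7.75 and 12.9. It was the only one of the 84 sites held by cal. res. without a ctrl. peak (1.19%), compared with 0.842% of all sites; Nnmt was the only one of the 8 genes to have one, compared with 2.56% of protein-coding genes. Both ctrl. libraries had a peak in the neighbouring intronic site 8.1 kb downstream, a site merged over 6 lists whose edge was 374 bp away. On the other side, ctrl. replicate 1 had a weak peak (percentile 10.8) 280 bp away. With 12458 regions per library the site had 38.7 and 78.2 in cal. res., 11.6 and 58.8 in CORT, and again no ctrl. peak.

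The adjoining intronic site, chr9:48596279-48597804, had 85.3 and 29.98 in ctrl., 86.3 and 86.7 under cal. res. and 71.0 and 81.8 under CORT. Cal. res. was above the other 4 libraries, with a margin of about 1 percentile point over ctrl. replicate 1 (exact permutation p = 0.467 over 3 groups). When peaks were ranked by p-value, ctrl. replicate 1 (87.8) was above cal. res. replicate 1 (87.7). In equal lists the values were 57.3 and 29.98, 75.0 and 79.96, and 31.4 and 42.9. An intronic site 13.4 kb downstream had 76.0 and 48.7, 52.9 and 46.5, and 51.0 and 67.2, with no separation of the groups.

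CORT held 5 of the 84 sites with no ctrl. peak (5.95%), against 4.28% of all sites. They were the Dnajc12 start site near Sirt1, the Pcyt2 site near Sirt7 and 3 Nnmt sites, so that 3 of the 8 genes had one, against 15.2% of protein-coding genes. The Nnmt ones were the intronic site 6.1 kb downstream and sites 16.9 kb (13.5 and 13.8) and 43.4 kb downstream (10.2 and 0.1). The last 2 stood near the bottom of the CORT lists. In lists of equal length neither of them had a peak, nor did the Dnajc12 start site, and the Pcyt2 site kept one in CORT replicate 1 only (68.6).

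Percentiles were then compared between groups at sites with a peak in every library of both groups. Cal. res. was above ctrl. without overlap at 4 of 21 sites (19.0%), against 11.4% of all such sites. These were the Nnmt sites 7.9 kb upstream and 8.1 kb downstream, the distal Nampt site and a Sirt7-window site 47.3 kb downstream. Cal. res. was below ctrl. at 5 of 21 (23.8%), against 21.1%: 3 Sirt3-window sites, the Aspscr1 start near Sirt7 and the Ctnnbip1 site near Nmnat1. In lists of equal length cal. res. and ctrl. overlapped at the Ctnnbip1 site and at the Sirt3-window site 28.8 kb downstream. The split depended on the ctrl. library. Within series A, whose ctrl. list is the shortest, cal. res. was above ctrl. at 10 of 21 sites (47.6%, against 56.8% of all such sites). Cal. res. was below ctrl. at 5 of 21 there (23.8%, against 24.99% of all such sites).

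CORT was above ctrl. at 6 of 23 sites (26.1%), against 27.1% of all such sites, and below it at 1 of 23 (4.35%), against 5.73%. Within series B it was above ctrl. at 10 of 40 sites and below it at 10 (25% each, against 32.0% and 36.1% of all such sites). Cal. res. was above CORT at 2 of 25 (8.0%), against 9.09%, namely the distal Nampt site and the Nnmt site 8.1 kb downstream. It was below CORT at 10 of 25 (40%), against 43% of all. Over all libraries, the shares for CORT against ctrl. and for cal. res. against CORT lay within 3 percentage points of the background. The comparisons of cal. res. and of CORT with ctrl. share the same 2 ctrl. libraries.

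FOXO1 peaks overlapped 12 of the 84 GR sites (14.3%), against 13.9% of all sites. Among the sites held by all 3 groups they overlapped 9 of 20 (45.0%), against 50.7%. Of the 12, cal. res. held 11, and the same share over all sites was not counted. All 3 groups held 9 of the 12, against 4104 of 7133 over all sites. The GR sites with a FOXO1 peak stood higher in the GR lists: the median of their mean percentile was 81.7, compared with 39.4 for the other sites, and over all sites the medians were 71.7 and 32.6. At least 1 FOXO1 peak was within 50 kb of 5 of the 8 genes, compared with 33.3% of protein-coding genes.

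Nnmt had 5 of the 12 overlapping sites. Its 6 FOXO1 peaks had fold enrichments between 4.41 and 9.92, the highest at chr9:48606109-48606646, 1.2 kb upstream, at percentile 86.6. The FOXO1 peak at the strongest Nnmt GR site had percentile 12.5 of its list. Over the 14 FOXO1 peaks the median percentile was 37.0. The FOX string TGTTTAC was found inside 2 of the 14 FOXO1 peaks (14.3%, median length 372 bp) and in 23.3% of 8346 FOXO1 peaks (median length 421 bp). Both are printed on the minus strand with the string in capitals, to show the FOX letters present where FOXO1 and GR peaks overlap.

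Nnmt, 12.4 kb downstream, chr9:48592666-48592712: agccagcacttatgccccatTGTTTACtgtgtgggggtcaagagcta
Sirt1, 33.9 kb upstream, chr10:63415509-63415555: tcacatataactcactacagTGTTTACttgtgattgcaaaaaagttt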

How the data were processed

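GR peaks of 6 mouse liver libraries and 1 FOXO1 peak list were used. Samples were grouped by the titles in the labels. Per the study's methods, the authors used BWA for alignment to mm10, dropped duplicate and multimapping reads, called GR peaks with MACS2 in each library on its own, and filtered blacklisted regions with bedtools. FOXO1 peaks were called on merged libraries. That filter is described after both kinds of call, with FOXO1 not excepted. Largest q-values in the deposited lists were 0.0994 to 0.0998 for GR and 9.84e-06 for FOXO1. In the deposited lists, fold enrichment is pileup over local background as a ratio, and p-values and q-values stand as −log10. Reads and depth were not analysed here, so the precision of a single peak is unknown.

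Rows with equal coordinates were reduced to the summit of highest fold enrichment. Regions sharing at least 1 bp were merged into sites, placed by their centre at most 50 kb from the gene record's start, and given the percentile of fold enrichment in each list. Group orders at single sites were tested with exact permutation tests over libraries. Counts over the genes are set beside the same counts over all sites or genes, with no test. The 8 genes, the 25 pathway genes and the 7 motifs were chosen with earlier results of these data known. Sites given in full were, for each gene, that of highest mean percentile, the one over its start, and those held by cal. res. or CORT with no ctrl. peak. Gene positions, transcripts and exon classes came from GENCODE M21, and sequence from the RefSeq assembly of GRCm38; 0 peak ends lay beyond a reference chromosome. Site merging and percentile orders were tested on simulated lists of similar length, so that test does not cover the effect of unequal lists. Alternatives were q of at most 0.01, 12458 regions per library, windows of 25 and 100 kb, overlap of 50%, ranks by p-value, sites held by either library, a replicate block and leaving out each library; after the data were seen, ranks by p-value and equal lists were also applied to sites in all 6 lists. Scripts ran on Python 3.11.15 with pysam 0.24.0, SciPy 1.17.1, pandas 2.3.3, matplotlib 3.10.9 and NumPy 2.4.6.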

Additional observations from a re-analysis of the deposited data

How the results depend on the processing

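The design allows no site to pass a threshold, lists differ in length, and name series and group cannot be told apart between cal. res. and CORT; the depth of the libraries is unknown here. Over 162 recomputed counts, 106 stayed within 1.5 times the value in the report. Causes of the other changes were not tested beyond what each setting itself removes or adds.

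A 25 kb window left 41 sites (13 held by ctrl., 13 by cal. res., 26 by CORT, 11 by all 3 groups) and 7 overlaps with FOXO1. Cal. res. was then above ctrl. at 2 sites and below at 0, CORT below ctrl. at 0, and cal. res. above CORT at 1 and below at 3. A 100 kb window gave 161 sites (43, 46, 69 and 31), 2 held by cal. res. without a ctrl. peak, 22 FOXO1 overlaps and 24 FOXO1 peaks, with cal. res. below ctrl. at 10, CORT above ctrl. at 11 and below at 2. The shares over all sites do not depend on the window and are those given above. How many sites were compared for the orders at each window was not counted, so these orders cannot be read as shares. Lists of equal length left 41 sites, 18 held by CORT, 13 by all 3 groups and 2 by CORT without a ctrl. peak, with cal. res. below ctrl. at 3, CORT above ctrl. at 2 and cal. res. below CORT at 3. Over all sites with a peak in every library compared, the shares of these orders were 20.2%, 20.6% and 23.4%. In the full lists they were 21.1%, 27.1% and 43%. Counting either library, ctrl. held 57, CORT 76 and all 3 groups 34, and sites without a ctrl. peak numbered 2 for cal. res. and 27 for CORT. At q of at most 0.01, CORT was below ctrl. at 0 sites, against 5.75% of all such sites. The stronger FOXO1 peaks (above the median) gave 4 overlaps and 6 peaks. Shares over all sites were not counted for the stronger FOXO1 peaks or for sites held by either library. With the replicate block, comparing same-numbered pairs, cal. res. was below ctrl. at 8 sites and no other count moved by over 1.5 times. The share of all such sites in that order was then 30.2%, against 21.1% without the block. Deviations of same-numbered libraries correlated at -0.05 (ctrl. with cal. res.), -0.13 (ctrl. with CORT) and 0.07 (cal. res. with CORT). These values show no pairing by number, but with 2 libraries a group they cannot exclude it.

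Leaving out each library in turn gave 68 to 84 sites, 27 to 57 held by ctrl. (57 without ctrl. replicate 2), 26 to 34 by cal. res., 45 to 68 by CORT (68 without CORT replicate 1) and 20 to 24 by all 3 groups. A group left with 1 library was taken to hold every site with a peak in that library. Its count then only repeats that library's own number of peaks. Sites without a ctrl. peak ranged from 1 to 5 for cal. res. (5 without ctrl. replicate 1, 2 without cal. res. replicate 2) and from 5 to 22 for CORT (22 without ctrl. replicate 1 or CORT replicate 1, 10 without CORT replicate 2). Cal. res. was above ctrl. at 4 to 10 sites (10 without ctrl. replicate 1) and below at 5 to 17 (17 without ctrl. replicate 2, 9 without cal. res. replicate 1). CORT was above ctrl. at 6 to 16 (16 without ctrl. replicate 1 or CORT replicate 1, 10 without ctrl. replicate 2) and below at 1 to 10 (10 without ctrl. replicate 2, 5 and 4 without CORT replicates 1 and 2). Cal. res. was above CORT at 2 to 9 (9 without CORT replicate 2) and below at 10 to 22 (22 without CORT replicate 1). Shares over all sites are given above for cal. res. against ctrl. without ctrl. replicate 1, and for CORT against ctrl. without ctrl. replicate 2. They were not counted for the other omissions.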

Other observations

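Another 25 sirtuin and NAD genes, listed by role, were counted in the same way. A GR site lay within 50 kb of the start of 23 of them. The share of all protein-coding genes with any site was not counted, and their median was 3 sites. A site held by cal. res. lay near 18, against 47.2% of protein-coding genes, and a site held by all 3 groups near 17, against 37.9%. FOXO1 peaks were found near 15, against 33.3%. Of the genes of the route from tryptophan to NAD, which include Acmsd, whose enzyme diverts an intermediate away from NAD, all 7 had a site held by cal. res., 6 had one held by all 3 groups and 6 had a FOXO1 peak. Tdo2, the tryptophan dioxygenase that opens this route in liver, had 24 sites. It was the only 1 of the 25 genes with a site held by cal. res. without a ctrl. peak, against 2.56% of protein-coding genes. CORT held 4 sites without a ctrl. peak there. Kmo, the monooxygenase of the same route, had 15 sites, of which 6 were held by all 3 groups, and 4 FOXO1 peaks.

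Of 6 genes listed under NAD consumption and breakdown, 2 (Sarm1 and Aox1) had a site held by cal. res., against 47.2% of protein-coding genes. Cd38, Bst1, Parp1 and Parp2 had 1 or 2 sites each. The remaining sirtuins both had sites, 7 at Sirt2 and 18 at Sirt4, with 1 site held by all 3 groups at each. Differences between these groups of genes were not tested.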
